A study of Danio rerio with 3 samples.

Results

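The genes examined were the PDGF ligands and receptors of the zebrafish, taken by the symbols pdgfaa, pdgfab, pdgfba, pdgfbb, pdgfra and pdgfrb in the deposited gene list. The 6 symbols stand for 7 identifiers of the 32520 genes listed, since pdgfaa is listed under both ENSDARG00000110069 and ENSDARG00000109371, whose UMIs were summed. In the 15627 cells kept they gave 57 UMIs for pdgfaa, 2281 for pdgfab (ENSDARG00000098578), 236 for pdgfba (ENSDARG00000086778), 472 for pdgfbb (ENSDARG00000038139), 11909 for pdgfra (ENSDARG00000070494) and 17968 for pdgfrb (ENSDARG00000100897).

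Platelet-derived growth factors are secreted dimers that bind receptor tyrosine kinases on neighbouring cells. In vertebrates the A chains act chiefly through the alpha receptor, which marks fibroblasts and other mesenchyme, while the B chains bind the alpha and the beta receptor. PDGF-B made by endothelium recruits pericytes and vascular smooth muscle, the mural cells that carry the beta receptor, and the zebrafish keeps duplicated a and b copies of the ligand genes.

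The cells came from ventricles of 6-month-old fish of the EK strain carrying tcf21:nucEGFP, a nuclear green reporter under regulatory sequence of the epicardial gene tcf21, and were sorted as live nucEGFP+ cells. Hearts were taken at 3 and at 7 days after partial ventricular amputation (3 dpa and 7 dpa), and uninjured clutchmates served as Ctrl. Each condition is 1 droplet library (10x 3' v3), so every comparison between conditions below compares 2 libraries, has no replicate check and carries no p-value. The kept cells number 5098 in Ctrl, 3905 at 3 dpa and 6624 at 7 dpa, with median UMIs per cell of 4312, 9623 and 5436. Between 6 and 12 cell barcodes are shared by any pair of libraries. The number of fish behind each library is not given in the sources used here. The same reporter was used for the sort in all 3 conditions, but whether its purity and leakage were equal between libraries was not tested.

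Cells were clustered without the PDGF genes and named from marker lists that leave those genes out. The 3 epicardial classes were mesenchymal-like cells (4328 in Ctrl, 2134 at 3 dpa, 4856 at 7 dpa), epithelial-like cells (277, 996 and 1334) and cells like the activated epicardial progenitors of the study, here aEPC-like (6, 481 and 28), whose leading genes are mostly those of dividing cells. The others were mural-like (307, 107 and 138), immune-like (92, 135 and 176), cardiomyocyte-like (58, 39 and 77) and endothelial-like cells (30, 13 and 15). A level below is the number of UMIs of a gene per 10000 UMIs of a group of cells. Intervals in parentheses are exact 95% Poisson intervals for levels and exact conditional intervals for ratios. They cover counting error only and are too narrow as a measure of biological spread, since UMIs of 1 cell are not independent.

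Transcripts found in cells that should lack them set a floor for what can be read as expression. Immune-like cells, which should lack fibroblast genes, carried tcf21 at 18.9, 15.8 and 15.3% of the mesenchymal-like level in Ctrl, 3 dpa and 7 dpa, and the fibroblast genes dcn and col1a2 at 14.6 to 23.1%. Cardiomyocyte-like cells carried tcf21 at 73.0, 91.8 and 82.2% of the mesenchymal-like level, so their PDGF levels are not described. Free RNA and droplets with more than 1 cell were not told apart as the source.

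**Figure D1:**
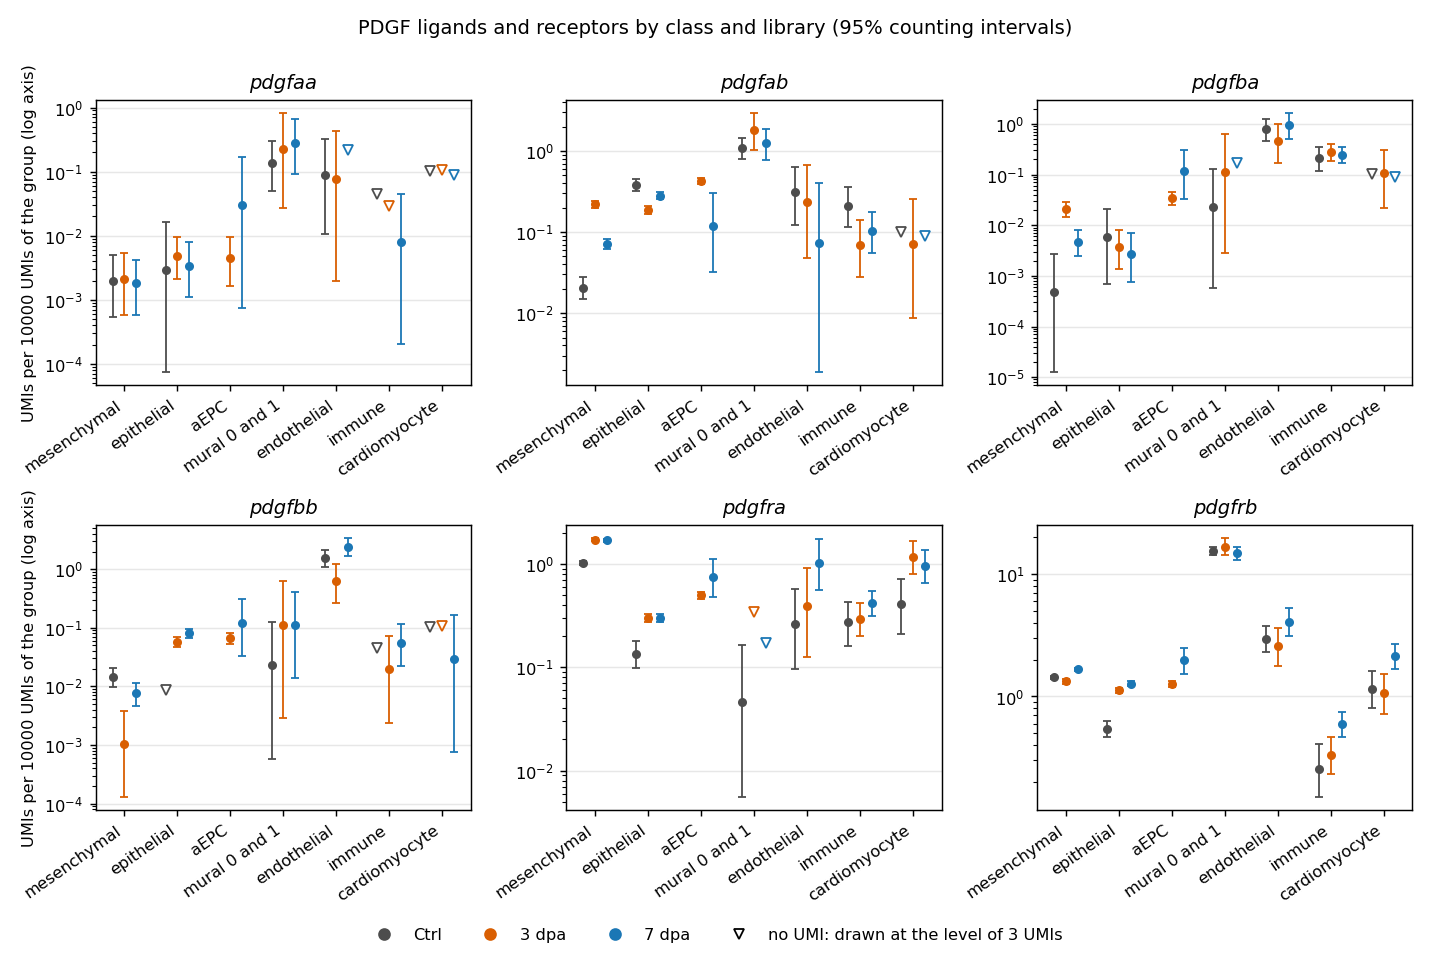
Level of each PDGF gene (UMIs per 10000 UMIs, log axis) in each cell class and library, with exact 95% Poisson intervals and open triangles at the level of 3 UMIs where no UMI was found. The mural-like cells drawn are those of sub-clusters 0 and 1 only, and the few aEPC-like cells of Ctrl are not drawn. pdgfra stands highest in mesenchymal-like cells and pdgfrb in mural-like cells in all 3 libraries, while pdgfbb stands highest in endothelial-like cells.

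Of the ligands, pdgfaa was hardly captured. Its UMIs over all kept cells numbered 14 in Ctrl, 24 at 3 dpa and 19 at 7 dpa. The mural-like cells of the main sub-clusters, described below, held 6, 2 and 5 of them, a level of 0.185 (0.098–0.316) over the 3 libraries against 0.00193 (0.00103–0.00331) in mesenchymal-like cells. That is a ratio of 95.5 (40.8–224) resting on 13 UMIs in each class. Mural-like cells thus had the highest pdgfaa level, but its interval overlapped that of endothelial-like cells, 0.061 (0.013–0.178) from 3 UMIs. No difference between conditions was detectable at this depth.

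The second A ligand, pdgfab, was the best captured of the ligands. Over whole libraries, which no clustering affects, its level was 0.097 in Ctrl (249 UMIs in 161 cells), 0.268 at 3 dpa (1372 UMIs in 624 cells) and 0.147 at 7 dpa (660 UMIs in 442 cells). The 3 dpa library stood above the others. In Ctrl, 53.4% of the pdgfab UMIs came from epithelial-like cells, 20.9% from mural-like and 16.9% from mesenchymal-like cells. At 3 dpa the largest source was the aEPC-like class with 41.9%, followed by mesenchymal-like cells with 30.6% and epithelial-like cells with 22.4%. By 7 dpa epithelial-like cells again gave most of it, 63.0%.

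**Figure D2:**
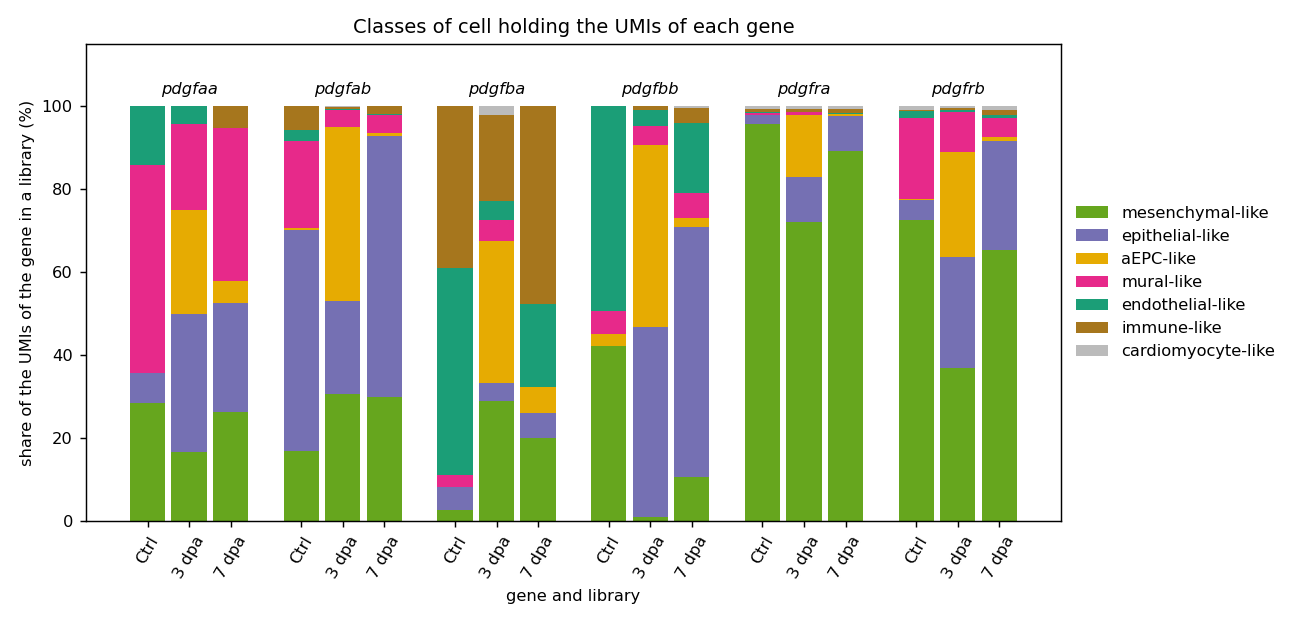
Share of each PDGF gene's UMIs (percent of the library's UMIs of that gene) that came from each cell class, by library, as stacked bars. At 3 dpa the aEPC-like class gave 41.9% of the pdgfab UMIs and 25.2% of the pdgfrb UMIs, though it was almost empty in Ctrl.

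Within epithelial-like cells, the outer layer of the epicardium, pdgfab was lower after injury. Its level was 0.387 (0.324–0.458) in Ctrl, 0.188 (0.168–0.211) at 3 dpa and 0.282 (0.256–0.311) at 7 dpa. The log2 ratio of 3 dpa over Ctrl was -1.04, and -1.43 after taking off the median over all genes, which lay at 0.39 in this comparison. In cells thinned to 1800 UMIs each, 3.28% of 3 dpa cells (2.25–4.59) and 7.64% of Ctrl cells (4.79–11.4) had a pdgfab UMI, leaving out 19 and 2 shallower cells. Without thinning these shares were 20.4 and 26.0%, and the immune-like shares after thinning were 0 of 112 cells at 3 dpa and 1.23% in Ctrl. Immune-like levels also ran lower in the injured libraries, from 7 cells in each library. They were 0.212 (0.116–0.355) in Ctrl, 0.069 (0.028–0.142) at 3 dpa and 0.103 (0.055–0.177) at 7 dpa. At a coarser clustering resolution of 0.2 no cluster was named aEPC-like, and epithelial-like cells numbered 1540 at 3 dpa. The ratio of 3 dpa over Ctrl was then 0.777, against 0.487 here. The size of this decrease thus depended on whether the clustering set an aEPC-like class apart.

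In mesenchymal-like cells, the tcf21+ cells of the inner layers, pdgfab stood higher at 3 dpa than in Ctrl. The level was 0.0205 (0.0148–0.0278) in Ctrl from 42 UMIs in 35 cells, 0.222 (0.201–0.244) at 3 dpa from 420 UMIs in 174 cells and 0.0709 (0.0613–0.0815) at 7 dpa from 197 UMIs in 132 cells. The ratio of 3 dpa over Ctrl was 10.8 (7.84–15.2), against a median log2 ratio of 0.15 over all genes. Thinned shares were 0.196% in Ctrl, 2.19% at 3 dpa and 0.854% at 7 dpa. Immune-like cells had levels of 0.212, 0.069 and 0.103 from 7 cells in each library, so only the 3 dpa value of the mesenchymal-like class lay above what those cells carried. Whether immune-like cells express pdgfab themselves was not tested.

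Of the 420 UMIs at 3 dpa, 336 lay in 1 of the 4 mesenchymal-like clusters. Cluster 1, led by ptger2b, slc16a3 and the activin subunit gene inhbaa, held them in 108 of its 697 cells, a level of 0.420, against 0.0205 from 18 UMIs in Ctrl, a ratio of 20.4 (12.7–34.9). Clusters 0 and 3 were higher too, by smaller ratios. Their 3 dpa levels lay within the immune-like interval of that library, 0.069 (0.028–0.142). Cluster 0 had 0.077 at 3 dpa, against 0.014 in Ctrl, a ratio of 5.49 (2.66–12.7), cluster 3 had 0.096 against 0.032, a ratio of 2.96 (1.54–6.01), and cluster 6 had 5 UMIs at 3 dpa and 1 in Ctrl. Cluster 1 also held the aEPC markers at that time. Its level of ptx3a, a secreted pentraxin, was 1.60 at 3 dpa against 0.02 in Ctrl, and that of col12a1b, a fibril-associated collagen, 2.31 against 0.01, while the aEPC-like class at 3 dpa had 3.04 and 2.93.

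This mesenchymal increase depended on where the clustering drew the border of the aEPC-like class. With log normalization in place of SCTransform, 426 of the cluster 1 cells of 3 dpa became aEPC-like and took 330 of its 336 pdgfab UMIs along. The 266 that stayed mesenchymal-like kept 6, a level of 0.039. Without the library as batch term, 314 moved with 325 UMIs and 380 stayed with 11. The mesenchymal-like log2 ratio of 3 dpa over Ctrl was then 1.18 or 1.37, against 3.43 with the clustering used above.

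**Figure D3:**
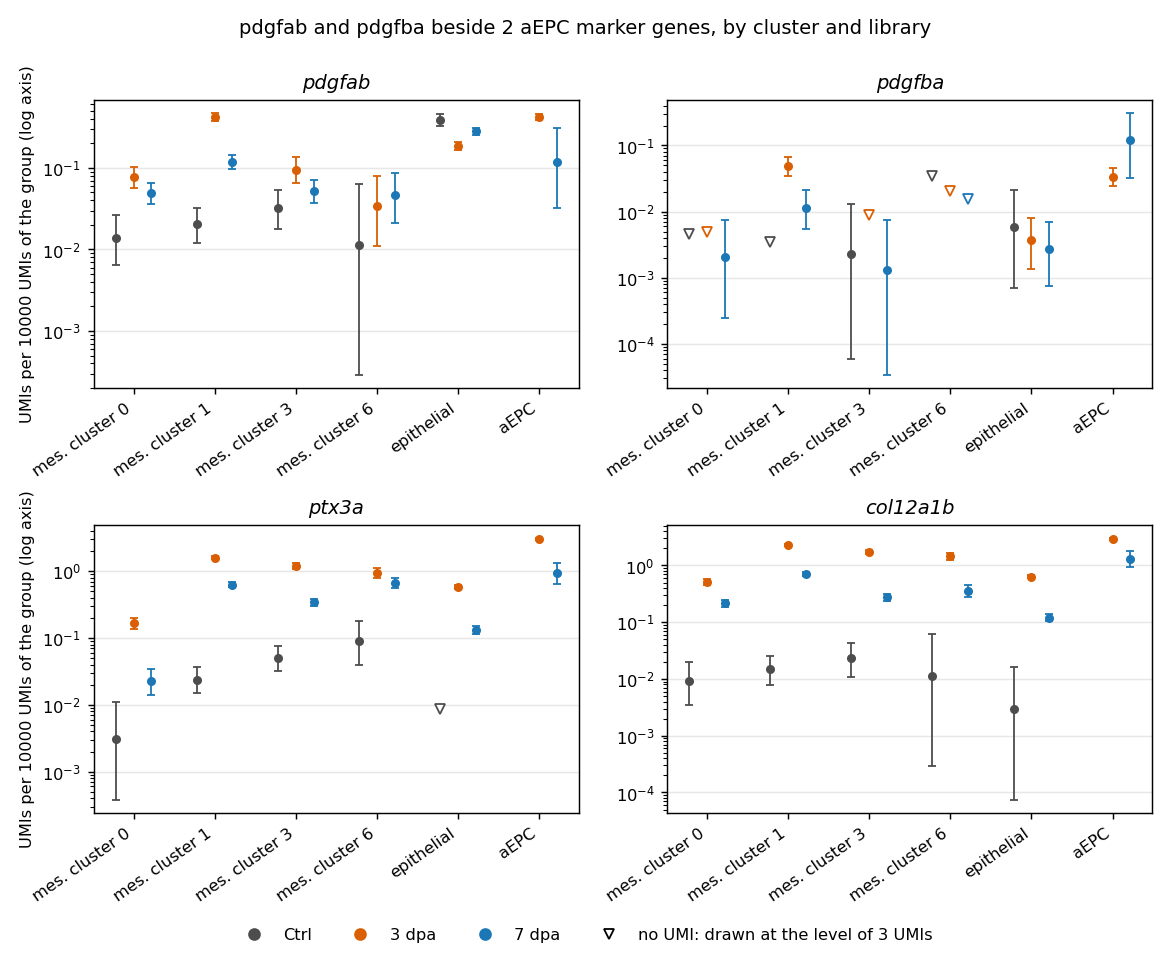
Levels of pdgfab and pdgfba beside the aEPC markers ptx3a and col12a1b (UMIs per 10000 UMIs, exact 95% intervals) in the 4 mesenchymal-like clusters, epithelial-like and aEPC-like cells of each library. The few aEPC-like cells of Ctrl are not drawn. At 3 dpa pdgfab, pdgfba, ptx3a and col12a1b all stood higher in mesenchymal-like cluster 1 than in clusters 0, 3 and 6.

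When cells of 3 dpa were split by the aEPC markers, pdgfab went with them in cluster 1 and in the aEPC-like class. Among all epicardial cells of 3 dpa, the 649 with a ptx3a or col12a1b UMI after thinning had a pdgfab level of 0.422. The 2820 without had 0.196, a ratio of 2.15 (1.93–2.40), but this pool mixes classes that differ in pdgfab. Cells with the markers were deeper, with a median of 22100 UMIs against 8852. Within cluster 1 the ratio was 2.30 (1.84–2.87), within the aEPC-like class 1.45 (1.21–1.74), and within epithelial-like cells 0.97 (0.68–1.35). In clusters 0 and 3 it was 1.39 (0.48–3.31) and 1.63 (0.73–3.52), from 6 and 13 UMIs in cells with the markers. At 7 dpa it was 1.31 (0.98–1.71) over all epicardial cells, 1.29 (0.77–2.04) in epithelial-like cells and 3.05 (1.98–4.65) in cluster 1, and clusters 0 and 3 had 1 and 2 UMIs in cells with the markers. This split was chosen after values had been seen. The aEPC-like class as a whole had a pdgfab level of 0.423 (0.389–0.459) at 3 dpa, from 201 of its 481 cells. That was 2.24 times (1.95–2.59) the epithelial-like level of 3 dpa, where the median gene differed by 0.19 on the log2 scale. The aEPC-like interval overlapped that of epithelial-like cells of Ctrl, 0.387 (0.324–0.458).

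Per UMI, the highest pdgfab levels were in mural-like cells. The main mural sub-clusters had 1.09 (0.81–1.45) in Ctrl, 1.80 (1.03–2.93) at 3 dpa and 1.24 (0.78–1.88) at 7 dpa, from 48, 16 and 22 UMIs. These values overlap within their intervals, so no change with injury was detectable. In Ctrl the level was 53.3 times (34.5–82.6) that of mesenchymal-like cells, where the median gene was higher by 0.41 on the log2 scale. After thinning, 11.8% of 76 Ctrl cells, 31.6% of 19 cells at 3 dpa and 24.1% of 29 cells at 7 dpa had a UMI, with 202, 33 and 89 cells too shallow to enter.

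The B ligand pdgfba was found in 148 cells of all. Endothelial-like cells had the highest level, 0.794 (0.470–1.25) in Ctrl, 0.467 (0.171–1.02) at 3 dpa and 0.952 (0.507–1.63) at 7 dpa, from 18, 6 and 13 UMIs. Immune-like cells followed with 0.212 (0.116–0.355), 0.276 (0.183–0.399) and 0.247 (0.168–0.350), from 14, 28 and 31 UMIs. Pooled over libraries, the immune-like level was 31.6 times (21.9–45.9) that of mesenchymal-like cells, and the immune-like levels overlapped between conditions. The ratio was 13.4 (7.95–22.4) at 3 dpa and 52.8 (26.8–109.8) at 7 dpa, while the mesenchymal-like cells of Ctrl held 1 UMI. Without the 3 dpa library, which gave 39 of the 53 mesenchymal-like UMIs, the pooled ratio was 80.9, with log normalization it was 185, and without the batch term 152.

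At a finer resolution of 0.5 the immune-like cells fell into separate clusters with and without pdgfba. The cluster led by ccl34a.4, c1q genes and marco, genes of macrophages, had 14, 27 and 29 pdgfba UMIs in its 36, 73 and 91 cells, a level of 0.375, 0.377 and 0.346. The cluster led by ccl38a.5 and sla2 had 0, 1 and 2 UMIs in 56, 62 and 85 cells. After thinning, 4.03% of immune-like cells (2.22–6.68) and 0.0845% of mesenchymal-like cells had a pdgfba UMI.

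In the epicardium, pdgfba was found mostly in mesenchymal-like cluster 1 and the aEPC-like class of 3 dpa. Mesenchymal-like cluster 1 had 39 UMIs in 26 cells at 3 dpa, a level of 0.0487 (0.0346–0.0666), and 10 UMIs in 7 cells at 7 dpa, against none in 1770 Ctrl cells. Set against the 3 UMIs that a count of 0 allows in that Ctrl group, the 3 dpa level was 14.2-fold higher. This value leaves out the counting error of the 3 dpa level. Clusters 0, 3 and 6 had 0 to 2 UMIs in any library, and epithelial-like cells, a main source of pdgfab, had 2, 6 and 4. The aEPC-like class had 46 UMIs in 21 cells at 3 dpa, a level of 0.0338 and 9.19 times (3.91–26.3) that of epithelial-like cells. How pdgfba divides between cluster 1 and the aEPC-like class depends on the clustering. Many cluster 1 cells of 3 dpa became aEPC-like with log normalization or without the batch term, as described for pdgfab.

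pdgfbb, the second B ligand, was also led by endothelial-like cells, at 1.54 (1.08–2.15) in Ctrl, 0.622 (0.269–1.23) at 3 dpa and 2.42 (1.66–3.39) at 7 dpa. These are 35, 8 and 33 UMIs in 16, 3 and 10 cells. Their 3 dpa level lay below that of 7 dpa without overlap of the intervals, but rests on 3 cells. Pooled, the endothelial-like level was 196 times (136–284) that of mesenchymal-like cells, and 314 times without Ctrl. By library it was 105 times (62.7–177) in Ctrl and 320 times (180–582) at 7 dpa, and at 3 dpa the mesenchymal-like cells held 2 UMIs.

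In epithelial-like cells pdgfbb was found in the injured libraries and not in Ctrl. None of the 277 cells of Ctrl had a UMI, where 3 UMIs would be a level of 0.00872. At 3 dpa there were 94 UMIs in 69 cells, a level of 0.0577 (0.0466–0.0706), and at 7 dpa 118 UMIs in 75 cells, a level of 0.0801 (0.0663–0.0959). Against the Ctrl floor these levels are 6.61-fold and 9.18-fold higher, leaving out the counting error of the injured libraries. Thinned shares were 0 of 275 cells in Ctrl, 0.921% at 3 dpa and 1.52% at 7 dpa. The immune-like level of 0.0197 (0.0024–0.0712) at 3 dpa and 0.0557 (0.0224–0.115) at 7 dpa overlaps these values, whereas mesenchymal-like cells of the same libraries, at 0.00105 and 0.00755, lie far below them.

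Mesenchymal-like counts ran the other way, but were few. There were 30 pdgfbb UMIs in 21 cells of Ctrl, 2 in 2 cells at 3 dpa and 21 in 21 cells at 7 dpa. The ratio of 3 dpa over Ctrl was 0.072 (0.008–0.283). The levels of 0.0147, 0.00105 and 0.00755 lay below the upper bounds of immune-like cells, 0.0558, 0.0712 and 0.115. Those bounds rest on only 0, 2 and 7 immune-like UMIs, so they cannot decide whether the mesenchymal-like levels are expression. No conclusion on expression is drawn from the difference. Within the aEPC-like class of 3 dpa, pdgfbb and pdgfab ran with different markers. Only 31 of the 481 cells held pdgfbb, with 90 UMIs, so each of its splits rests on few cells. The level of pdgfbb was 0.228 in cells with a UMI of podxl, an apical epithelial sialomucin, against 0.036 in those without, and 0.262 with and 0.043 without a UMI of top2a, a gene of dividing cells. It was 0.010 with and 0.098 without a ptx3a UMI. For pdgfab the podxl split ran the opposite way, 0.223 with and 0.460 without.

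The alpha receptor pdgfra marked the mesenchymal-like class in every library. Its level there was 1.01 (0.967–1.05) in Ctrl, 1.71 (1.65–1.77) at 3 dpa and 1.68 (1.63–1.73) at 7 dpa, from 2065, 3248 and 4671 UMIs in 1441, 1336 and 2482 cells. Both injured libraries stood above Ctrl and differed little from each other. The ratio of 3 dpa over Ctrl was 1.70 (1.60–1.79), a log2 ratio of 0.76 or 0.61 after the median of all genes is taken off, and that of 7 dpa over Ctrl was 1.66 (1.58–1.75). After thinning, 17.1% of Ctrl cells (16.0–18.3), 30.4% of 3 dpa cells (28.4–32.5) and 25.9% of 7 dpa cells (24.6–27.2) had a UMI, leaving out 254, 121 and 291 cells. The unthinned shares were 33.3, 62.6 and 51.1%, and the thinned immune-like shares 3.70, 2.68 and 1.95%.

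All 4 mesenchymal-like clusters showed it. Cluster 0, led by the inhibin subunit gene inhbb, had 1.23, 2.50 and 2.12 in Ctrl, 3 dpa and 7 dpa. Cluster 3, led by tnfsf12 and dhrs3a, had 1.28, 1.65 and 1.85, and cluster 6, led by rgs5b, had 1.17, 1.88 and 1.67. Cluster 1 was lowest in each library with 0.697, 1.11 and 1.04. Within cluster 1 at 3 dpa, cells with a ptx3a or col12a1b UMI had less pdgfra, 0.622 against 1.37 in those without, a ratio of 0.45 (0.38–0.53). The same split gave ratios of 0.68 in cluster 0, 0.77 in cluster 3 and 0.69 in cluster 6, so pdgfra was lower in marker-bearing cells of each at 3 dpa. In epithelial-like cells of 3 dpa the ratio was 1.40 (1.1–1.76) and in the aEPC-like class 1.13 (0.96–1.32). Over all epicardial cells, which mix these classes, it was 0.64 (0.60–0.69) at 3 dpa and 0.99 (0.89–1.1) at 7 dpa, when cluster 1 had 0.94 (0.77–1.13).

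Outside that class pdgfra was lower in every library. Endothelial-like cells had 0.265 (0.097–0.576), 0.389 (0.126–0.907) and 1.03 (0.561–1.72) in Ctrl, 3 dpa and 7 dpa, from 4, 1 and 4 cells with a UMI. Epithelial-like cells had 0.134 (0.098–0.178) in Ctrl, 0.301 (0.275–0.328) at 3 dpa and 0.301 (0.273–0.330) at 7 dpa. Immune-like cells had 0.272, 0.296 and 0.422, from 5, 14 and 20 cells. The epithelial-like values thus lay below or close to those of cells that should lack the gene, and the difference between conditions is not read as expression. Mesenchymal-like cells had 7.56 (5.64–10.4), 5.70 (5.18–6.28) and 5.59 (5.07–6.17) times the epithelial-like level in Ctrl, 3 dpa and 7 dpa. The Ctrl ratio became 19.5 without the cells of highest Scrublet score, Scrublet being a doublet caller, and the 3 dpa ratio 9.32 with log normalization. In the 43 epithelial-like cells of 3 dpa with a UMI of hapln1a, the gene of a matrix link protein that marks mesenchymal cells, the pdgfra level was 1.13, against 0.258 in the 934 without. The aEPC-like class had 0.497 (0.460–0.536), 0.29 times (0.267–0.315) that of mesenchymal-like cells of 3 dpa. The main mural sub-clusters had 2 pdgfra UMIs in Ctrl and none at 3 or 7 dpa, a Ctrl level 0.045 times (0.005–0.163) that of mesenchymal-like cells.

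**Figure D4:**
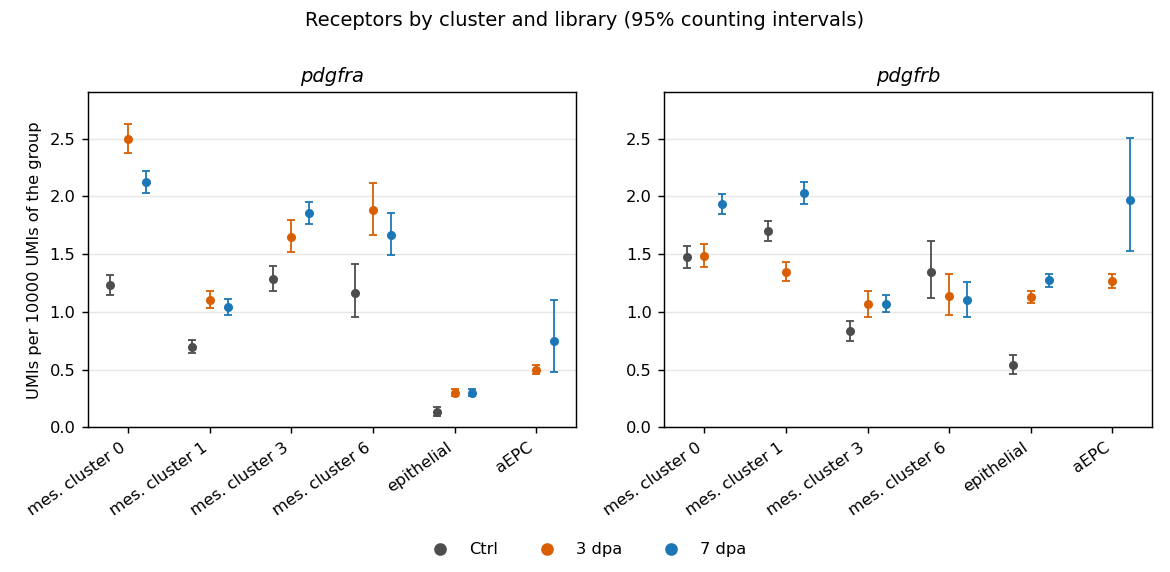
Levels of the receptors pdgfra and pdgfrb (UMIs per 10000 UMIs, linear axis from 0, exact 95% intervals) in the mesenchymal-like clusters 0, 1, 3 and 6, epithelial-like and aEPC-like cells of each library. The few aEPC-like cells of Ctrl are not drawn. pdgfra was higher at 3 dpa and 7 dpa than in Ctrl in each mesenchymal-like cluster, and pdgfrb in epithelial-like cells.

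The beta receptor pdgfrb was highest in mural-like cells. Sub-clustering divided them into 5 groups. Sub-clusters 0 and 1 hold 278 Ctrl, 52 3 dpa and 118 7 dpa cells, and raise all 8 shared mural markers and all 6 pericyte markers, with a summed pericyte marker level of 19.5 against 0.293 in mesenchymal-like cells. Their pdgfrb level was 15.4 (14.3–16.6) in Ctrl, 16.8 (14.2–19.7) at 3 dpa and 14.8 (13.0–16.7) at 7 dpa, from 676, 149 and 261 UMIs. The ratio of 3 dpa over Ctrl was 1.09 (0.91–1.30), so no change with injury was detectable. These levels were 10.8 (9.91–11.7), 12.7 (10.7–14.9) and 8.82 (7.76–10.0) times the mesenchymal-like ones. After thinning, 78.9% of 76 Ctrl cells, 84.2% of 19 cells at 3 dpa and 89.7% of 29 cells at 7 dpa had a pdgfrb UMI.

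The whole mural-like class had pdgfrb at 13.4 in Ctrl, 6.75 at 3 dpa and 11.8 at 7 dpa, and 10.7 at 3 dpa without sub-cluster 2. The ratio of 3 dpa over Ctrl was 0.504 (0.453–0.560) for the whole class and 0.986 without sub-clusters 2 and 3. Sub-cluster 2 held 45 cells of 3 dpa, 1 of 7 dpa and none of Ctrl, with a median of 14407 UMIs at 3 dpa, and had a pdgfrb level of 5.97 (5.45–6.53) there. Sub-cluster 2 raised 8 of 8 shared mural markers but also 10 of 12 aEPC markers, with a summed level of 55.0 against 14.0 in mesenchymal-like cells, and 10 of 10 cycling markers. It had pdgfab at 0.470 (0.332–0.645), close to the aEPC-like class, and pdgfra at 0.272 (0.170–0.412). Among the 45 cells, 3 had Scrublet scores in the highest range, and with log normalization 40 of its 46 cells joined the aEPC-like class.

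The small sub-cluster 4, with 5, 6 and 9 cells and a summed smooth muscle marker level of 198, had pdgfrb at 5.85 (2.67–11.1), 5.83 (2.91–10.4) and 11.2 (7.71–15.7). It held 11 pdgfbb UMIs, a level of 1.73 (0.86–3.09) over the 3 libraries, while the endothelial gene cdh5 had none. Sub-cluster 3 had pdgfrb at 7.41, 2.26 and 7.44, and 71.1% of its cells were among the highest Scrublet scores. Over all sub-clusters but 2, cells with a pericyte marker UMI (rgs5a, ndufa4l2a or abcc9) had 13.8 (13.0–14.8) and those without 10.8 (9.72–12.0). A split by smooth muscle markers gave 12.6 with and 13.2 without, within their intervals.

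**Figure D5:**
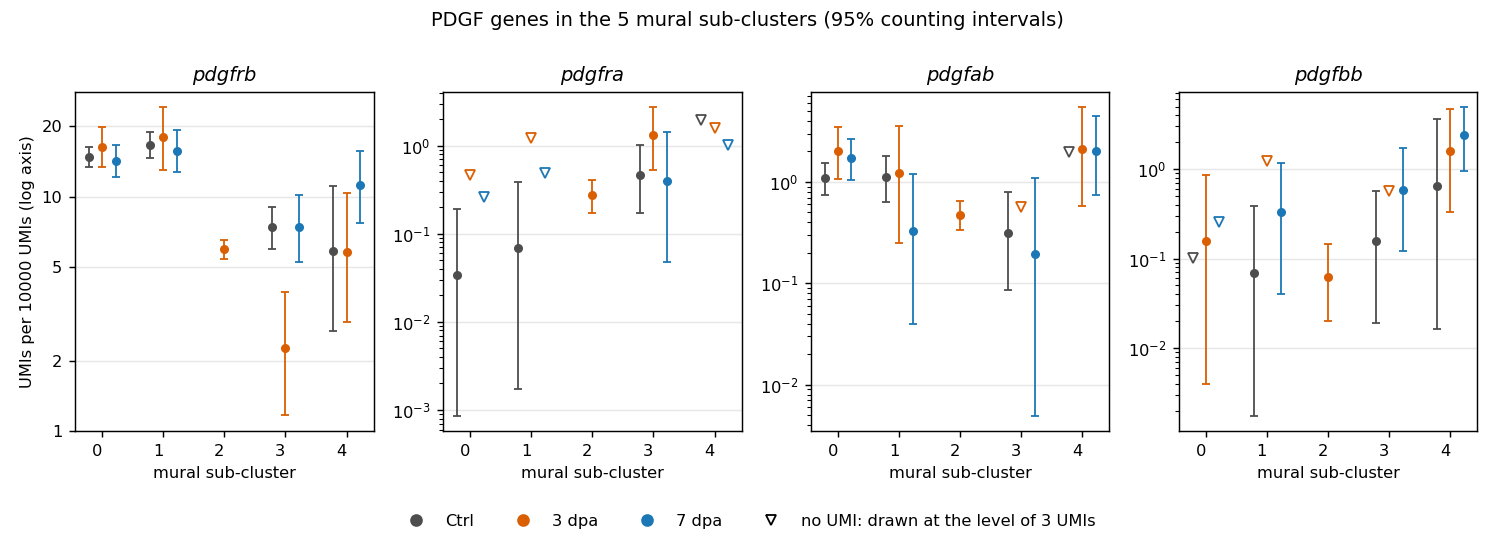
Levels of pdgfrb (log axis), pdgfra, pdgfab and pdgfbb (UMIs per 10000 UMIs, exact 95% intervals) in mural-like sub-clusters 0 to 4 of each library. pdgfrb is highest in sub-clusters 0 and 1 and lower in sub-cluster 2, which holds 45 cells of 3 dpa and 1 of 7 dpa.

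In epithelial-like cells pdgfrb was higher after injury. The level was 0.541 (0.466–0.624) in Ctrl from 186 UMIs in 112 cells, 1.13 (1.07–1.18) at 3 dpa from 1834 UMIs in 624 cells and 1.27 (1.22–1.33) at 7 dpa from 1874 UMIs in 829 cells. The ratio over Ctrl was 2.08 (1.79–2.43) at 3 dpa and 2.35 (2.02–2.75) at 7 dpa, and the 3 dpa log2 ratio of 1.06 became 0.67 with the median of all genes taken off. Thinned shares were 9.45% (6.27–13.5), 14.4% (12.3–16.8) and 18.2% (16.2–20.4), against 4.94, 3.57 and 5.84% in immune-like cells. Immune-like levels were 0.257 (0.150–0.412) in Ctrl, 0.335 (0.232–0.468) at 3 dpa and 0.597 (0.469–0.748) at 7 dpa. These lay below the epithelial-like level of the same library, but they stood higher in the injured libraries as well. What part of the epithelial-like difference such background makes up was not tested. Of the 4 members that could be compared in this class between 3 dpa and Ctrl (50 or more UMIs in both groups together), pdgfbb, pdgfra and pdgfrb were past 1.5-fold higher and pdgfab lower, where 56.1% of all genes were past 1.5-fold in either direction. The pdgfra count is not read as expression, as its level lay close to that of immune-like cells. For pdgfbb the 3 dpa interval also overlapped that of immune-like cells.

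Mesenchymal-like cells changed little in pdgfrb, at 1.43 (1.38–1.48) in Ctrl, 1.33 (1.28–1.38) at 3 dpa and 1.67 (1.62–1.72) at 7 dpa. Here 2 of the 3 members compared between 3 dpa and Ctrl, pdgfab and pdgfra, were past 1.5-fold higher, against 29.5% of all genes higher and 47.5% in either direction. The gap between the 2 epicardial layers in pdgfrb was thus 2.64 (2.28–3.08) in Ctrl, 1.18 (1.11–1.25) at 3 dpa and 1.31 (1.25–1.39) at 7 dpa, as mesenchymal over epithelial. Clusters differed as well, and least at 3 dpa. Cluster 3 had 0.832, 1.07 and 1.07, while cluster 1 had 1.70, 1.35 and 2.03. The aEPC-like class stood at 1.26 (1.21–1.33), and the ptx3a or col12a1b split gave a pdgfrb ratio of 1.05 (0.99–1.11) over all epicardial cells of 3 dpa. It was 1.49 (1.20–1.86) in cluster 3 at 3 dpa and 1.27 (1.17–1.38) over all epicardial cells of 7 dpa.

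Endothelial-like cells had pdgfrb at 2.95 (2.29–3.75), 2.57 (1.77–3.60) and 4.10 (3.10–5.33), above mesenchymal-like cells of the same libraries. These cells also raised 8 of 8 shared mural markers, with a summed level of 22.2 against 137 in mural sub-clusters 0 and 1, and 8 of 9 cardiomyocyte markers, while cdh5 stood at 8.44. The part of these other cell types in the pdgfrb value was not tested. Of all pdgfrb UMIs, mesenchymal-like cells gave 72.7% in Ctrl, 36.9% at 3 dpa and 65.3% at 7 dpa, and mural-like cells gave 19.4, 9.6 and 4.7%.

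The receptors shared mesenchymal-like cells about as often as their separate shares would give. After thinning, 163 Ctrl cells had UMIs of pdgfra and pdgfrb where the product of the shares gives 151, 137 at 3 dpa where it gives 129, and 295 at 7 dpa where it gives 288. For pdgfab and pdgfra the count lay below the product at 3 dpa. At 3 dpa 3 mesenchymal-like cells had both, where the product gives 13.4, and 12 had pdgfab with pdgfrb, where it gives 9.25. The product treats the class as uniform, though before thinning 336 of its 420 pdgfab UMIs of 3 dpa lay in cluster 1. That cluster was lowest in pdgfra, and what part of the shortfall this makes up was not tested. In Ctrl the 3 cells with pdgfab and pdgfra stood beside a product of 1.37, and at 7 dpa 6 beside 10.1.

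Genes around the pathway were followed in 4 lists of family genes, extracellular handling, related receptors and signalling proteins bound by the receptors. Between 3 dpa and Ctrl in mesenchymal-like cells, pdgfrl, a receptor-like family gene, had a level of 2.33 at 3 dpa, against 0.784 in Ctrl. Of 10 handling genes tested 3 were past 1.5-fold higher and 2 lower, where 29.5% of all genes were higher and 18.0% lower. The higher ones were plaub, a urokinase-type plasminogen activator gene (log2 ratio 2.73), and the endocytic receptor genes lrp1aa (1.21) and lrp1ab (0.90), and the lower ones the convertase gene pcsk5b (-1.42) and plat (-1.02). Of 24 signalling genes 2 were higher, with grb2a at 1.05, and 6 lower, with the PI3-kinase genes pik3ca at -1.69 and pik3r3b at -1.01 in front. The list's median log2 ratio was -0.10, against 0.15 over all genes tested.

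In epithelial-like cells at 3 dpa over Ctrl, pdgfrl stood at 1.17 against 0.523. Of 7 handling genes 2 were higher (furinb, a convertase gene, log2 ratio 1.82, and furina 0.66) and 3 lower, plat (-0.82), lrp1ab (-0.61) and nrp1a (-0.59). Of 23 signalling genes 7 were higher, led by the adaptor genes nck1b (2.03) and nck1a (1.14), and 3 lower, led by the phosphatase gene ptpn11b (-2.19). Their median was 0.30, against 0.39 over all genes, of which 41.7% were past 1.5-fold higher and 14.4% lower. With ratios scaled by that median, 4 genes of all lists were higher in place of 10.

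In mural sub-clusters 0 and 1 over mesenchymal-like cells of Ctrl, pdgfab and pdgfrb were past 1.5-fold higher and pdgfra lower, where 64.0% of all genes were past 1.5-fold in either direction. Of 24 signalling genes 14 were higher there, led by nck2a (4.58) and nck2b (3.83), and 3 lower, with a median of 0.88 against 0.41 over all genes, of which 44.6% were past 1.5-fold higher and 19.4% lower. The co-receptor gene nrp1b stood at 0.684 against 0.0161, and lrp1aa was lower (-2.64). In endothelial-like over mesenchymal-like cells, pdgfd, a further family ligand, had 0.183 against 0.00893, from 9 UMIs in 5 endothelial-like cells, 8 of these UMIs from the 7 dpa library. Within the epicardium at 3 dpa pdgfd was lower in mesenchymal-like than in epithelial-like cells, 0.0100 against 0.0828.

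The genes whose levels ran most like each member were ranked over the 24 groups of cluster and library with at least 50 cells, by Pearson's r of log2(level + 0.05). The groups share libraries and depth, so r is a description. They include 2 cardiomyocyte-like groups and no endothelial-like group, the class with the highest pdgfba and pdgfbb levels, since none held 50 cells. Without the cardiomyocyte-like groups, 3 of the 5 genes named for pdgfrb remained, 4 of 5 for pdgfra, 3 of 3 for pdgfba, and 2 of 3 each for pdgfab and pdgfbb. Nearest pdgfrb were adcy6a (0.97), tgfb3 (0.95), CR848833.1 (0.94), ARHGEF17 (0.94) and zgc:66433 (0.94). Nearest pdgfra were lrp1aa (0.94), fbln2 (0.92), si:ch211-159i8.4 (0.91), stxbp1a (0.90) and nt5c2l1 (0.88). For the ligands they were id1 (0.87), arhgap29a (0.87) and id2a (0.85) for pdgfab, flvcr2b (0.98), capgb (0.96) and rac2 (0.96) for pdgfba, and prss35 (0.87), pdcl (0.85) and itgb3b (0.85) for pdgfbb. pdgfaa had too few UMIs to rank.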

How the data were processed

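The authors aligned the reads with Cell Ranger 3.0.2 to GRCz10, per the submitters' processing notes, and the deposited tables of the 3 libraries hold raw UMI counts of genes by droplet. Droplets number 5284 (Ctrl), 4390 (3 dpa) and 7002 (7 dpa), with 26092042, 52513639 and 45679493 UMIs. Following the study's methods, droplets needed more than 316 genes and no more than 5% mitochondrial counts. The 13707 genes present in 5 cells and in 0.2% of cells, in every library, were normalized with SCTransform (sctransform 0.4.2, Seurat 5.3.0, R 4.3.3) with library as batch term. The 3000 most variable genes, without 15 PDGF and pathway genes, gave 20 principal components (irlba 2.3.5.1) and Louvain clusters at resolution 0.3 (20 neighbours). A cluster took a class name where at least 60% of a marker list, and 3 markers, were raised 1.5-fold and found in 10% of its cells, a rule set after the clusters were seen. Mural-like cells were clustered again (10 components, resolution 0.5). Scrublet (scanpy 1.11.5) called only 1, 1 and 2 doublets, which was taken as not working, so no cell was removed by it. Its highest scores, 0.8% per 1000 droplets, were removed as an alternative. Levels, ratios and shares were computed from the counts (Python 3.11.15, scipy 1.17.1) with 95% intervals, with 3 counts as the floor for a group at 0. Genes with 50 UMIs in both groups together were called past 1.5-fold. Shares used cells thinned to 1800 UMIs. No test between conditions was possible with 1 library each. Named were the 6 genes, up to 4 pathway genes per list and comparison with the largest ratios, and the most similar genes. The members and lists were chosen with earlier results of these data known. Sequences and coordinates were not used here.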

Additional observations from a re-analysis of the deposited data

Results flagged for a closer look

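For 3 genes the change between libraries ran in opposite directions in different cell classes. The differences between classes were not tested, since each condition has 1 library. For pdgfab the log2 ratio of 3 dpa over Ctrl was 3.43 in mesenchymal-like cells, against -1.04 in the epithelial-like class and -1.62 in the immune-like class, the last from 7 UMIs at 3 dpa and 14 in Ctrl. For 7 dpa over Ctrl it was 1.79 in mesenchymal-like and -0.45 in epithelial-like cells, and for 7 dpa over 3 dpa -1.64 in mesenchymal-like and 0.58 in epithelial-like cells. The mesenchymal-like levels of Ctrl and 7 dpa lay below those of immune-like cells, so only the 3 dpa level stood above what those cells carried. Whether immune-like cells express pdgfab themselves was not tested. Without the batch term the mesenchymal-like value of 7 dpa over 3 dpa was 0.015, so the opposite directions ended there, and the 3 dpa over Ctrl value was 1.37. For pdgfbb, which had no UMI in epithelial-like cells of Ctrl, the level of 3 UMIs stood in for Ctrl. The log2 ratio in that class was then 2.73 at 3 dpa and 3.20 at 7 dpa, leaving out the counting error of the injured libraries. In mesenchymal-like cells it was -3.80 at 3 dpa and -0.96 at 7 dpa, from 30 UMIs in Ctrl, 2 at 3 dpa and 21 at 7 dpa. These mesenchymal-like levels lay below the upper bounds of immune-like cells. Those bounds rest on only 0, 2 and 7 UMIs, so no conclusion on mesenchymal-like expression is drawn. The epithelial-like pdgfbb intervals of the injured libraries also overlapped the immune-like ones. In the endothelial-like class the log2 ratio was -1.31 at 3 dpa, from 8 UMIs at 3 dpa and 35 in Ctrl. For pdgfrb the log2 ratio of 3 dpa over Ctrl was 1.06 in epithelial-like and -0.11 in mesenchymal-like cells.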

How the results depend on the processing

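Alternatives gave 391 values for 49 results. For the main results 108 stayed within counting error, or within 1.5 times for counts, and 26 moved. For the others 211 stayed, 44 moved and 2 changed direction. No paired analysis was possible because each condition has 1 library. The log2 ratio of pdgfab in mesenchymal-like cells, 3 dpa over Ctrl, was 3.43 and became 1.18 with log normalization and 1.37 without the batch term. Its 7 dpa over 3 dpa ratio of -1.64 became 0.015 without the batch term, and the mural-like pdgfrb ratio of 3 dpa over Ctrl of -0.99 became 0.052 with log normalization. Under these settings part of the cluster 1 cells of 3 dpa and of the mural sub-cluster 2 cells belong to the aEPC-like class. Of the 46 cells of sub-cluster 2, 40 did so with log normalization and 25 without the batch term. The epithelial-like pdgfab ratio of -1.04 became -0.36 at resolution 0.2, where no cluster was named aEPC-like, and -1.43 with median scaling. For pdgfra in mesenchymal-like cells the 0.76 of 3 dpa over Ctrl became 1.31 with log normalization, 1.09 without the batch term, 0.94 as a mean over cells and 0.61 with median scaling. Its mesenchymal over epithelial ratio at 3 dpa, 2.51, became 2.12 and 2.72 at resolutions 0.2 and 0.5, 3.22 with log normalization, 3.09 without the batch term, 2.29 with a 10% mitochondrial limit, 2.30 with all genes in the clustering and 2.83 as a mean over cells. The pdgfba ratio of immune-like over mesenchymal-like cells, 4.98, became 7.53, 7.25 and 6.07 with log normalization, without the batch term and as a mean over cells, and 6.34 without the 3 dpa library. The pdgfbb ratio of endothelial-like over mesenchymal-like cells, 7.61, became 8.30 without Ctrl. Leaving out libraries was chosen after seeing the data. The pdgfrb ratio of mural-like over mesenchymal-like cells in Ctrl, 3.23, became 3.37 without the highest Scrublet scores and 3.40 without mural sub-clusters 2 and 3, an alternative chosen after seeing the data. The epithelial-like pdgfrb ratio of 1.06 became 1.30 without the highest Scrublet scores and 0.67 with median scaling. Pathway genes lower in mesenchymal-like cells numbered 8 and became 5 with a minimum of 200 UMIs, and those higher in epithelial-like cells numbered 10 and became 4 with median scaling. Depth limits pdgfaa, pdgfba and the endothelial-like values most, which rest on few UMIs.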
